A study of Homo sapiens with 10 samples.

Results

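The genes described here are 35 human protein-coding genes. They comprise established transcriptional targets of the tumor suppressor p53 and core genes of the apoptosis machinery, and were chosen by name from the 78894 gene IDs of the deposited table. All 35 were found in the table by their GENCODE 44 symbol, each under 1 ID. RNA-seq was performed on HEK293T cells, an established line derived from human embryonic kidney, kept in media that differed in L-cysteine. The labels give 2 libraries from cysteine-free medium (0X-Cys), 4 from complete medium (1X-Cys) and 4 from medium with excess cysteine (10X-Cys), and call them biological replicates. The design text gives 24 h for complete and cysteine-free medium and does not name the excess medium. All groups share the line and carry no further allele, agent or transgene in the labels.

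p53 is a transcription factor that accumulates and becomes active when DNA is damaged or cells are otherwise stressed. It binds a DNA element made of a pair of adjacent repeat units, each with a C and a G around an A/T-rich core. Its targets halt the cell cycle, repair DNA, adjust metabolism and, under stronger stress, induce apoptosis. They also include its own inhibitors, among them the ubiquitin ligase MDM2. HEK293T cells express the large T antigen of the virus SV40, a protein known to bind p53 and to hold its activity down, so the line is a limited model of p53 signaling. Several p53 targets are known to be induced as well by other routes. The stress factors ATF4 and CHOP, which respond to amino acid limitation and misfolded protein, act on some of them. Members were therefore divided by general knowledge into core p53 targets (16 genes), p53 targets also known as stress or early response genes (12 genes) and general apoptosis genes (7 genes). Earlier results of these data were known when this was done.

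The canonical p53 response element was searched within 5000 bases of the canonical start site of each member, as 2 adjacent repeat units with no spacer and both C and G cores exact. The sequences below are shown because p53 is known to act through such elements. They are given 5′ to 3′ on the strand of the gene, in GRCh38, with the core of each repeat unit in capitals. Distances and introns refer to the canonical transcript. The gene coordinates given further below span all annotated transcripts, so a site before the canonical start can lie within them. PLK2 and ZMAT3 held matches without a mismatch, GADD45A and CCNG1 matches with 1 mismatch, and the rest shown here matches with 2 mismatches.
CDKN1A, chr6:36676449-36676468, 2265 bases before the start site: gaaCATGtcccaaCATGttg
MDM2, chr12:68808923-68808942, intron 1: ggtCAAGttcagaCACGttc
CCNG1, chr5:163437926-163437945, intron 1: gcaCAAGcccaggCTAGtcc
GADD45A, chr1:67686775-67686794, intron 3: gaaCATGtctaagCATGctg
PLK2, chr5:58462274-58462293, 2207 bases before the start site: aaaCATGcctggaCTTGccc
ZMAT3, chr3:179070188-179070207, intron 1: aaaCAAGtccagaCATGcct
FAS, chr10:88991309-88991328, intron 1: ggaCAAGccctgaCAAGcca
GDF15, chr19:18385308-18385327, 850 bases before the start site: catCTTGcccagaCTTGtct
Matches with up to 2 mismatches lay near 17 of the 35 members (48.6%) and near 1201 of 15650 protein-coding genes tested for expression (7.67%). With up to 1 mismatch the numbers were 6 of 35 (17.1%) and 171 of 15650 (1.09%), and without a mismatch 2 of 35 (5.7%) and 25 of 15650 (0.16%). A match describes the letters only, and binding of p53 was not measured.

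Each library held 34836014 to 61654861 reads assigned to genes, so that the number of libraries, rather than counting error, limits the precision for most members. Replicates of each medium differed by more than the sampling noise, with a chi-square per degree of freedom of 3.41 to 14. The median SD over all genes on the log2 scale was largest in complete medium, at 0.165. On the second principal component replicate 3 lay at -12.16 and the other 3 between -43.85 and -30.38, with the cysteine-free libraries at 59.35 and 62.21. Mitochondrial genes took 4.51% to 5.05% of the reads in complete medium, 5.15% to 5.71% in cysteine-free medium and 0.117% to 0.146% in excess cysteine. All 6 markers of the line that were examined, among them VIM and PAX2, were detected. Of 9 markers of other cell types, CD3E and INS had no read in any library, and the summed normalized count of the 9 was 962 to 1108 in 0X, 1228 to 1371 in 1X and 966 to 1029 in 10X.

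The member genes moved mostly upward in excess cysteine and, by smaller amounts, mostly downward without cysteine. Expression is given as normalized counts, that is read counts divided by a size factor per library, and differences as log2 fold changes of the normalized count plus 1 with the standard error. A gene was called when its adjusted p was 0.01 or less in limma's moderated test over all 29045 genes kept. 1 member, TNFRSF10A, did not pass the filter on low values, which left 34. Against complete medium, 25 of the 34 rose in excess cysteine and 0 fell. Of all genes tested 46.0% were called in that comparison, 23.1% higher and 22.9% lower. By at least 2-fold 14 of the 34 rose and 0 fell, where 6.39% of all genes rose and 3.74% fell. The 10X and 1X libraries did not overlap for 27 of the 34, where they did not overlap for 51.6% of all genes. The median log2 fold change of the 34 was 0.70, and that of all genes 0.01.

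In cysteine-free medium 13 of the 34 fell and 1 rose, where 15.9% of all genes were called, 8.51% lower and 7.39% higher. BTG2 alone among them fell by at least 2-fold and 0 rose by as much, where 0.661% of all genes fell and 1.44% rose. The 0X and 1X libraries did not overlap for 23 of the 34 and for 46.9% of all genes. The median was -0.32 over the 34 and 0 over all genes. Between the cysteine-free and the excess medium directly, 30 of the 34 were lower without cysteine and 0 higher, where 48.0% of all genes were called, 24.4% lower and 23.6% higher. By at least 2-fold 20 were lower and 0 higher, where 7.01% of all genes were lower and 5.42% higher. The libraries did not overlap for 32 of the 34 and for 66.0% of all genes, and the median was -1.26. These comparisons share libraries and are not independent of each other. In bulk RNA, fewer cells expressing a gene and less of its RNA per cell cannot be told apart. The part of the lower mitochondrial read share in the excess libraries in these differences was not tested.

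**Figure D1:**
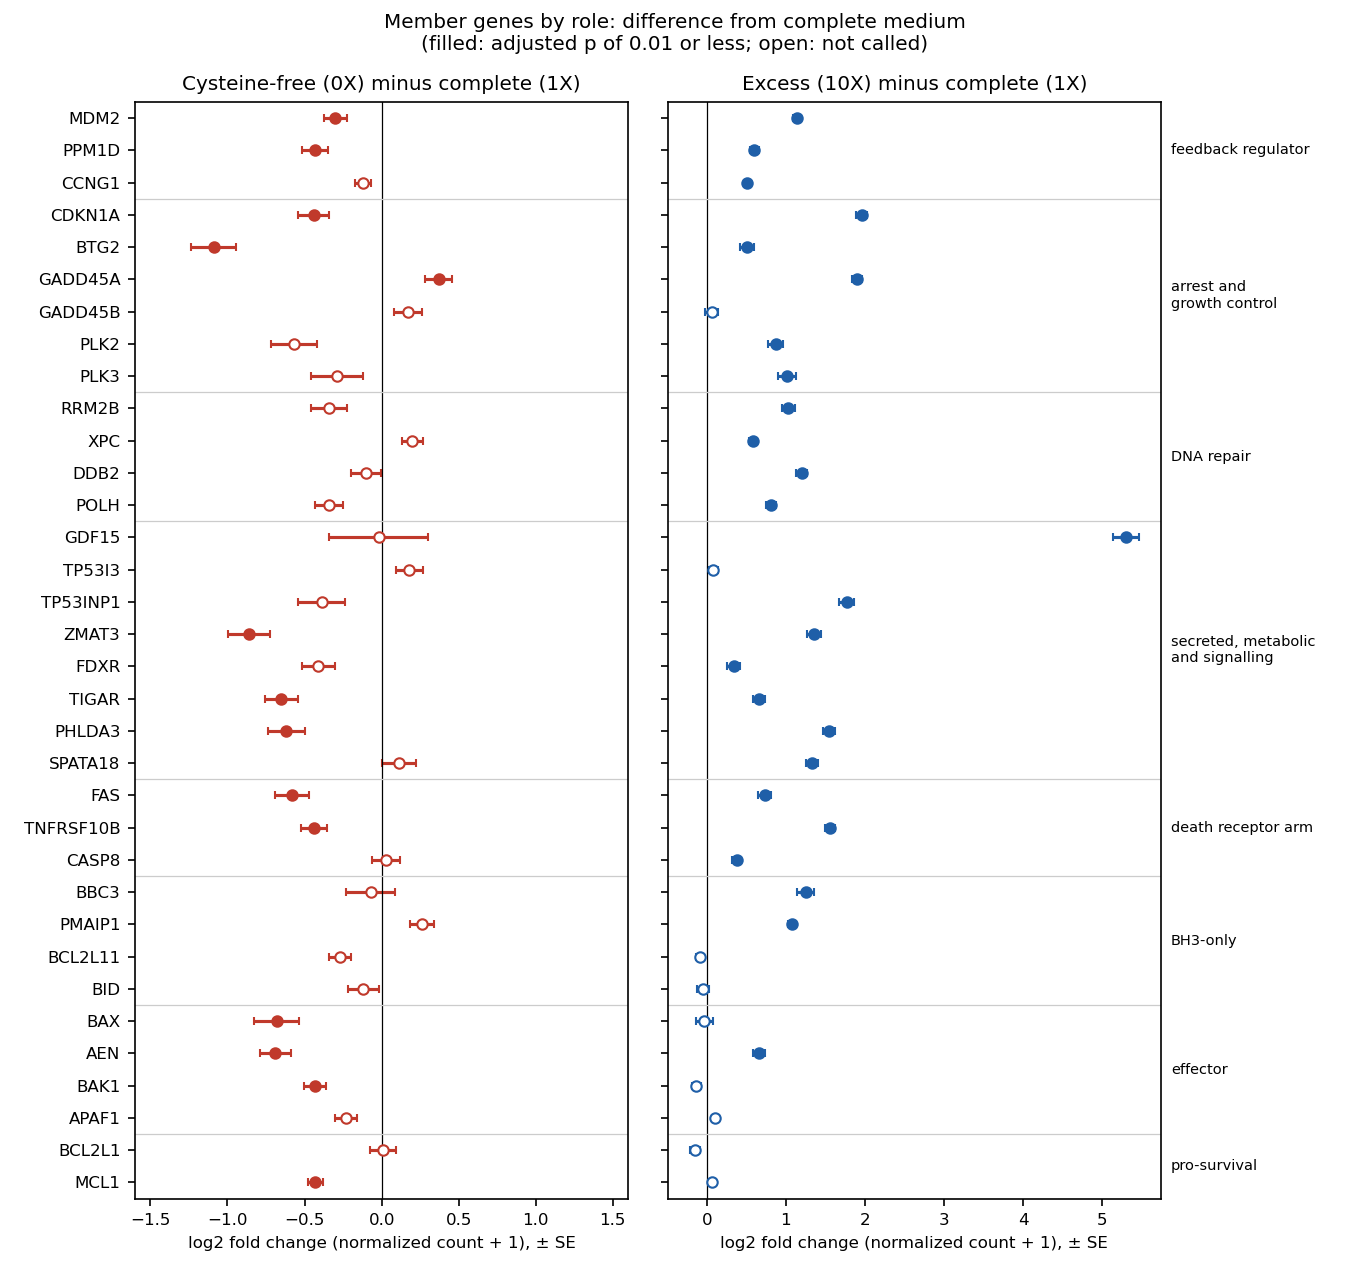
Log2 fold change (normalized count plus 1) of the 34 tested members in cysteine-free (left, 2 against 4 libraries) and excess medium (right, 4 against 4) relative to complete medium, grouped by role. Points are limma estimates with their standard error, filled where the adjusted p is 0.01 or less: in excess cysteine 25 are filled, all to the right of 0, and in cysteine-free medium 13 are filled to the left of 0 and 1, GADD45A, to the right.

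The calls in cysteine-free medium rested on few libraries. The 13 lower members became 4 without 0X replicate 1, 1 without 0X replicate 2, 6 without 1X replicate 1 and 7 without 1X replicate 2. They became 19 without 1X replicate 3, 15 without 1X replicate 4 and 2 with no filter on low values. MCL1 was the only member called lower under every alternative run. In excess cysteine the 25 higher members were called whichever library was left out. With libraries scaled to equal totals 27 members were called higher there, and 61.8% of all calls were higher, where without that scaling 50.26% were. Equal totals moved the median of all genes in that comparison to 0.12. An exact permutation test of a single gene cannot go below 0.067 for 2 libraries against 4 or below 0.029 for 4 against 4, 2-sided.

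CDKN1A encodes p21, the inhibitor of cyclin-dependent kinases through which p53 arrests the cell cycle. The gene (chr6:36676460-36687337, ENSG00000124762) had 1652 and 1576 in the 0X libraries, 2327, 2021, 1886 and 2561 in the 1X libraries and 8373, 8283, 8645 and 8659.9 in the 10X libraries. The 3 groups did not overlap, and the excess libraries lay far above the rest. Its log2 fold change was 1.96 (SE 0.0710, adjusted p = 7.94e-13) in excess cysteine, a 3.89-fold rise. In cysteine-free medium it was -0.44 (SE 0.101, adjusted p = 0.00580). The latter call was lost without either cysteine-free library or without 1X replicate 1 or 2, where the adjusted p ranged from 0.0139 to 0.0964. It was lost as well with equal totals (adjusted p = 0.0113), quantile normalization (0.0102) and no filter (0.17). CDKN1A shares 4.9% of its exon bases with the antisense transcript DINOL.

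MDM2, PPM1D and CCNG1 are feedback regulators that p53 switches on and that restrain it in turn. MDM2, the ubiquitin ligase of p53, lies at chr12:68808177-68845544 (ENSG00000135679) and had 5229 and 5053 in the 0X libraries, 6303, 6569.5, 5578 and 6912 in the 1X libraries and 14175, 13626, 14180.0 and 13727 in the 10X libraries. Here too the groups did not overlap. The log2 fold change was 1.14 (SE 0.0522, adjusted p = 1.43e-11) in excess cysteine, a 2.20-fold rise, and -0.30 (SE 0.0729, adjusted p = 0.00795) in cysteine-free medium. The call in cysteine-free medium was lost under the same alternatives as for CDKN1A, with adjusted p of 0.0263 to 0.116 when 0X replicate 1 or 2 or 1X replicate 1 or 2 was left out. PPM1D, which encodes the phosphatase WIP1, rose by 0.60 in excess and was at -0.43 without cysteine (adjusted p = 0.00189). That call was lost without either cysteine-free library and without 1X replicate 1 (adjusted p of 0.0111 to 0.0492). CCNG1, cyclin G1, rose by 0.51 in excess and was at -0.12 (adjusted p = 0.110) without cysteine.

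The other growth control genes did not move as a block. BTG2, an antiproliferative early response gene at chr1:203305491-203309602, had 606 and 456 in the 0X libraries, 1223, 1165, 864 and 1273 in the 1X libraries and 1525, 1592, 1573 and 1676 in the 10X libraries. Its larger difference from complete medium was in cysteine-free medium, at -1.09 (SE 0.144, adjusted p = 1.23e-04), a 2.13-fold fall. In excess cysteine it was 0.51 (SE 0.0918, adjusted p = 1.56e-04). Without 0X replicate 2 the value in cysteine-free medium was -0.88 (adjusted p = 0.0123), and with no filter the adjusted p was 0.0539 there and 0.0136 in excess. GADD45A, a growth arrest gene induced by DNA damage at chr1:67685201-67688334, had 1732 and 1905 in the 0X libraries, 1515, 1316, 1284 and 1534 in the 1X libraries and 5071, 5201, 5308 and 5421 in the 10X libraries. It was higher than complete medium in both other media, by 0.37 (SE 0.0868, adjusted p = 0.00641) without cysteine and by 1.90 (SE 0.0581, adjusted p = 9.07e-14) in excess. Without 0X replicate 1 or 2 or 1X replicate 1 or 2 its adjusted p in cysteine-free medium was 0.0118 to 0.131. Its paralog GADD45B was not called in any comparison, with values of 0.17 and 0.06 in cysteine-free and excess medium.

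The polo-like kinases PLK2 and PLK3, stress-responsive relatives of the mitotic kinase PLK1, were among the members with the lowest level per kilobase of exon. PLK3 (chr1:44800377-44805990) had 162 and 156 in the 0X libraries, 189, 219.9, 154 and 225 in the 1X libraries and 369, 382, 403 and 438 in the 10X libraries. The excess libraries were all above the rest, while the cysteine-free libraries lay within the range of the complete ones. Its log2 fold change was 1.02 (SE 0.114, adjusted p = 7.94e-07) in excess and -0.29 (SE 0.167, adjusted p = 0.216) without cysteine. PLK2, a member with an exact p53 element match printed above, rose by 0.87 in excess (SE 0.0923, adjusted p = 4.01e-07). Without cysteine it was at -0.57 (SE 0.149, adjusted p = 0.0115), just short of the threshold, and without 1X replicate 3 its adjusted p there was 0.00454.

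**Figure D2:**
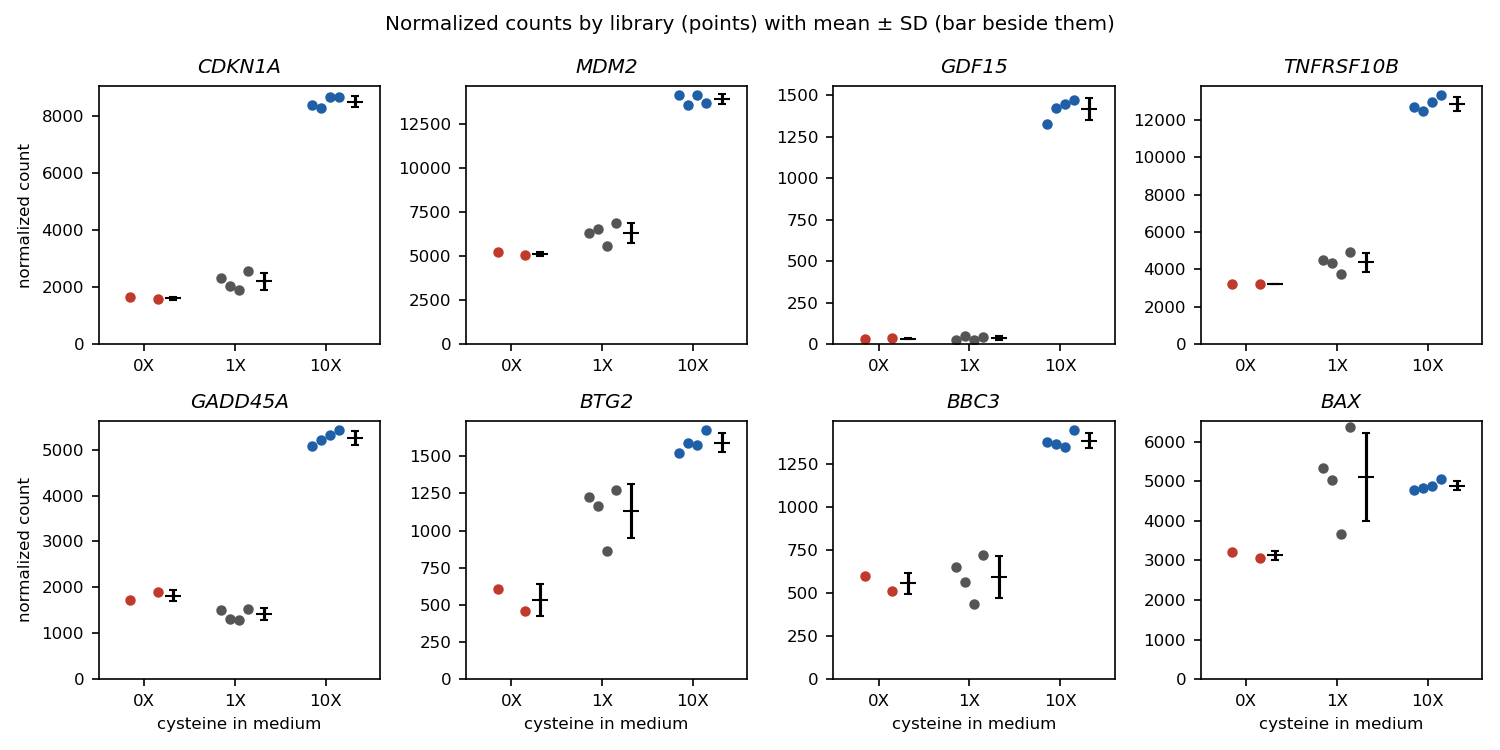
Normalized counts of 8 members in each library (points) by cysteine in the medium, with the group mean ± SD beside the points (n = 2 for 0X and 4 for 1X and for 10X) and axes that start at 0. In 7 of the panels every excess library lies above every complete library, whereas the 4 BAX values in excess cysteine (4776 to 5055) lie within the range of the complete libraries (3671 to 6362).

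All 4 DNA repair members rose in excess cysteine and none was called in cysteine-free medium. DDB2, a subunit of the ultraviolet damage sensor at chr11:47214465-47239217, had 1129.8 and 1213 in the 0X libraries, 1264, 1272, 1075 and 1425 in the 1X libraries and 2886, 2803, 2975 and 2869 in the 10X libraries. It rose in excess by 1.20 (SE 0.0674, adjusted p = 1.66e-10) and was at -0.10 without cysteine (adjusted p = 0.495). RRM2B, the p53-inducible small subunit of ribonucleotide reductase at chr8:102204502-102238961, had 1303 and 1479.9 in the 0X libraries, 1860.2, 1816, 1395 and 2039 in the 1X libraries and 3492, 3681, 3619.5 and 3601 in the 10X libraries. Its excess libraries were well separated from all others, with 1.03 (SE 0.0825, adjusted p = 1.35e-08), and without cysteine it was at -0.34 (SE 0.118, adjusted p = 0.0457). POLH, the translesion polymerase eta, rose by 0.81 in excess and was at -0.34 without cysteine (adjusted p = 0.0151). XPC, which recognizes bulky DNA lesions, rose by 0.58 in excess and was at 0.20 without cysteine (adjusted p = 0.0469), the opposite sign to POLH and RRM2B. Without 1X replicate 3, POLH (adjusted p = 2.23e-04) and RRM2B (adjusted p = 1.29e-04) were called lower in cysteine-free medium, and without 1X replicate 4 XPC was called higher (adjusted p = 0.00973). XPC shares 24.6% of its exon bases with XPC-AS1, which makes its count less certain.

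GDF15 had the largest rise of any member. It encodes a secreted stress cytokine that acts on appetite through a brainstem receptor, and is a target of p53 as well as of ATF4 and CHOP. The gene (chr19:18374731-18389176, ENSG00000130513) had 33.0 and 36.0 in the 0X libraries, 25.2, 46.9, 28.4 and 43.9 in the 1X libraries and 1324, 1426, 1448 and 1473 in the 10X libraries. It was thus low in complete and in cysteine-free medium, where the groups overlapped, and far higher in all 4 excess libraries. Its log2 fold change in excess was 5.30 (SE 0.159, adjusted p = 6.78e-14), a 39.5-fold rise, and without cysteine it was -0.02 (SE 0.324, adjusted p = 0.977). Over the alternatives run, the log2 fold change in excess ranged from 4.98 to 5.44. The gene shares no exon bases with another.

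The other secreted, metabolic and signaling members rose in excess with the exception of TP53I3. TP53INP1, a stress protein that promotes p53 phosphorylation and autophagy (chr8:94925972-94949378), had 394 and 309 in the 0X libraries, 512, 484, 350.2 and 505 in the 1X libraries and 1543, 1619, 1564 and 1513 in the 10X libraries. It rose by 1.77 (SE 0.0958, adjusted p = 1.09e-10) in excess, and its 0X and 1X libraries overlapped, with -0.39 (SE 0.154, adjusted p = 0.0752). Without 1X replicate 3, the lowest of the complete libraries, it was called lower in cysteine-free medium at -0.52 (adjusted p = 0.00165). PHLDA3, a repressor of the kinase AKT (chr1:201464278-201469237), had 687 and 566 in the 0X libraries, 1021, 951, 797 and 1096 in the 1X libraries and 2852, 2806, 2769 and 2843 in the 10X libraries. It was at 1.55 (SE 0.0748, adjusted p = 2.60e-11) in excess and -0.62 (SE 0.120, adjusted p = 0.00178) without cysteine, with no overlap between groups. ZMAT3, an RNA-binding zinc finger protein (chr3:178960121-179072215) with an exact element match in intron 1, had 830.3 and 647 in the 0X libraries, 1334, 1455, 1042 and 1549 in the 1X libraries and 3322, 3509, 3363 and 3446 in the 10X libraries. It was at 1.36 (SE 0.0876, adjusted p = 9.53e-10) in excess and -0.86 (SE 0.138, adjusted p = 4.98e-04) without cysteine. Leaving out 0X replicate 1 or 2 or 1X replicate 1 or 2 ended the call of PHLDA3 in cysteine-free medium (adjusted p of 0.0101 to 0.0684), and leaving out 0X replicate 2 ended that of ZMAT3 (-0.68, adjusted p = 0.0319).

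SPATA18, which takes part in the clearance of damaged mitochondrial proteins (chr4:52051304-52097299), had 559 and 521 in the 0X libraries, 523, 532, 428 and 531 in the 1X libraries and 1238, 1358, 1229 and 1227 in the 10X libraries. It rose by 1.33 (SE 0.0747, adjusted p = 1.69e-10) in excess and was at 0.11 without cysteine (adjusted p = 0.515). TIGAR, a phosphatase that diverts glucose from glycolysis, rose by 0.66 in excess and fell by 0.65 on the log2 scale without cysteine (adjusted p = 6.30e-04). The latter call was lost without 0X replicate 1 or 2 (adjusted p of 0.0125 and 0.0304). FDXR, the mitochondrial ferredoxin reductase, rose by 0.34 in excess although its groups overlapped, and with no filter its adjusted p was 0.0331. Without cysteine it was at -0.41 (SE 0.107, adjusted p = 0.0120), not called, but 7 of 16 alternatives called it lower, among them DESeq2 (adjusted p = 0.0018) and the fits without 1X replicate 3 (8.38e-04) or 4 (0.00805). TP53I3, a quinone oxidoreductase also known as PIG3, was called in no comparison, at 0.18 without cysteine and 0.08 in excess.

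In the death receptor arm of apoptosis, the receptors FAS and TNFRSF10B were both higher in excess cysteine and lower without cysteine. TNFRSF10B, which encodes the TRAIL receptor DR5 and is a target of both p53 and CHOP, lies at chr8:23020133-23069031 and had 3215 and 3207 in the 0X libraries, 4528, 4341, 3743 and 4942 in the 1X libraries and 12685, 12487, 12952 and 13312 in the 10X libraries. The 3 groups did not overlap. It was at 1.56 (SE 0.0619, adjusted p = 2.33e-12) in excess, a 2.94-fold rise, and at -0.44 (SE 0.0857, adjusted p = 0.00185) without cysteine. FAS was at 0.73 (SE 0.0780, adjusted p = 4.98e-07) in excess and at -0.58 (SE 0.111, adjusted p = 0.00171) without cysteine. Both calls in cysteine-free medium were lost without 0X replicate 1 or 2 or 1X replicate 1 or 2, with adjusted p of 0.0106 to 0.0433. CASP8, the initiator caspase recruited by these receptors, rose by 0.38 in excess (adjusted p = 3.29e-05) and was at 0.03 without cysteine. The paralogous receptor TNFRSF10A (DR4) had 0 reads in 8 libraries and 1 read in each of 10X replicates 1 and 4. In the 8 libraries without a read, the limit of 3 reads that a count of 0 allows corresponded to 2.56 to 3.71 normalized counts, so no difference between media was detectable for it at this depth.

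Of the 4 BH3-only genes, whose products set off mitochondrial apoptosis by engaging the BCL2 family, BBC3 and PMAIP1 rose in excess cysteine. BBC3 (PUMA, chr19:47220822-47232766) had 600.2 and 510.4 in the 0X libraries, 649, 566, 434 and 719.8 in the 1X libraries and 1374, 1366, 1348 and 1449 in the 10X libraries. The lowest excess library lay well above the highest of the others, with a log2 fold change of 1.25 (SE 0.110, adjusted p = 4.55e-08). Without cysteine it was -0.07 (SE 0.159, adjusted p = 0.775), and those groups overlapped. PMAIP1 (NOXA, chr18:59899996-59904305) had 4114 and 4306 in the 0X libraries, 3447, 3345, 4017 and 3267 in the 1X libraries and 7309, 7557, 7422 and 7410.0 in the 10X libraries. It was at 1.08 (SE 0.0542, adjusted p = 4.17e-11) in excess and 0.26 (SE 0.0766, adjusted p = 0.0208) without cysteine, the latter with both cysteine-free libraries above the complete ones but short of the threshold. Without 1X replicate 3 PMAIP1 was called higher in cysteine-free medium (0.33, adjusted p = 2.36e-04). BCL2L11 (BIM) was at -0.27 without cysteine (adjusted p = 0.0107) and -0.08 in excess, and BID was at -0.12 and -0.05, with neither called against complete medium. Without cysteine BCL2L11 was called lower under 7 of 16 alternatives, among them DESeq2 (adjusted p = 0.00533) and the fits without 1X replicate 3 (0.00756) or 4 (0.00918).

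Of the 4 members grouped as effectors of apoptosis, the nuclease AEN alone was called higher in excess. BAX, BAK1 and APAF1, which act in the mitochondrial pathway, were not called there. BAX, BAK1 and AEN were called lower without cysteine. BAX, which forms the pore in the outer mitochondrial membrane, had 3204 and 3050.3 in the 0X libraries, 5346, 5032, 3671 and 6362 in the 1X libraries and 4776, 4843, 4889 and 5055 in the 10X libraries. The complete libraries spread over 3671 to 6362 and enclosed the excess libraries, with -0.03 (SE 0.107, adjusted p = 0.804), while both cysteine-free libraries lay below them all, with -0.68 (SE 0.145, adjusted p = 0.00340). BAK1, its functional partner, was at -0.43 (SE 0.0719, adjusted p = 7.24e-04) without cysteine and -0.13 (SE 0.0530, adjusted p = 0.0415) in excess. AEN, an apoptosis-enhancing nuclease, was at -0.69 (SE 0.0993, adjusted p = 2.30e-04) and 0.66 (SE 0.0719, adjusted p = 6.09e-07). APAF1, the scaffold of the apoptosome, was at -0.23 and 0.11 and was called in neither comparison. It was called higher in excess with equal totals (0.22, adjusted p = 4.87e-04) and quantile normalization (0.15, adjusted p = 0.00573), and lower without cysteine with all 3 groups in one fit (adjusted p = 0.00845). In cysteine-free medium the BAX call was lost without 0X replicate 1 or 2 or 1X replicate 1 or 2 (adjusted p of 0.0188 to 0.0724) and in DESeq2 (0.0135), that of BAK1 without 0X replicate 1 or 2 (0.0163 and 0.0215) and that of AEN without 0X replicate 2 (0.0176).

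Of the pro-survival members, MCL1 had 5051 and 5247 in the 0X libraries, 6934, 6836, 7016 and 6959 in the 1X libraries and 7314, 7093, 7286 and 7158 in the 10X libraries. Its libraries agreed closely within each medium, and it fell by 0.43 on the log2 scale without cysteine (SE 0.0495, adjusted p = 4.11e-05), the smallest adjusted p of any member in that comparison. In excess it was at 0.06 (adjusted p = 0.177), but with equal totals it was called higher (0.16, adjusted p = 4.93e-04). BCL2L1 (BCL-XL) was at 0.01 without cysteine and -0.15 in excess (adjusted p = 0.0424). It was called lower in excess without 1X replicate 3 (-0.19, adjusted p = 0.00955). BCL2L1 shares 41.3% of its exon bases with the antisense transcript ABALON.

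Split by class, 14 of 16 core p53 targets rose in excess cysteine and 0 fell, with a median of 0.70. The exceptions were BAX and TP53I3. Of the 12 p53 targets also known as stress or early response genes, 10 rose and 0 fell, with a median of 1.16. Of the 6 general apoptosis genes tested, CASP8 rose and the other 5 were not called, with a median of 0.00. In cysteine-free medium 8 of the 16 core targets fell and 0 rose (median -0.37), 3 of the 12 stress-inducible targets fell and 1 rose (median -0.28), and 2 of the 6 general apoptosis genes fell and 0 rose (median -0.17). Between the cysteine-free and excess medium, 15 of 16, 11 of 12 and 4 of 6 were lower without cysteine. Of all genes 23.1% rose and 22.9% fell in excess, 8.51% fell and 7.39% rose without cysteine, and 24.4% were lower without cysteine than in excess. The differences between classes were not tested. The classes rest on general knowledge of these genes and were set with earlier results of these data known.

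Of the 17 members with a p53 element match of up to 2 mismatches, 15 rose in excess, with a median of 1.08. Of the 17 tested members without such a match 10 rose, with a median of 0.38. Of all genes 23.1% rose in excess. In cysteine-free medium 8 of the 17 with a match fell and 1 rose (median -0.34). Of the 17 without, 5 fell and 0 rose (median -0.29). Of all genes 8.51% fell and 7.39% rose there. None of the 6 tested general apoptosis genes held a match, so these groups differed in class as well as in the element. The difference between them was not tested. BBC3, PHLDA3, TP53INP1 and PPM1D rose in excess cysteine without a match in the window. The search misses elements with a spacer, with more than 2 mismatches or farther from the canonical start, so these genes may still have a p53 element. The letters TGATGNAA, a composite site that ATF4 and CHOP can bind, were searched on both strands in RefSeq promoters of GRCh38.p14, from 250 bases before to 50 bases after each start. They were found in 1 of 28 member promoters (3.57%), that of PLK3, and in 3.67% of all 27305 promoters. Only 28 of the 35 members had a promoter in that set. This search allowed no mismatch and covered a much shorter window than that for the p53 element, so their shares are not comparable. Sites outside the window or with other letters would be missed. Counts are less certain where genes overlap, and 19 of the 35 members share exon bases with another annotated gene. Of the 16 that share none, 13 rose in excess and 0 fell (median 0.77), and 5 fell and 1 rose without cysteine (median -0.23).

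**Figure D3:**
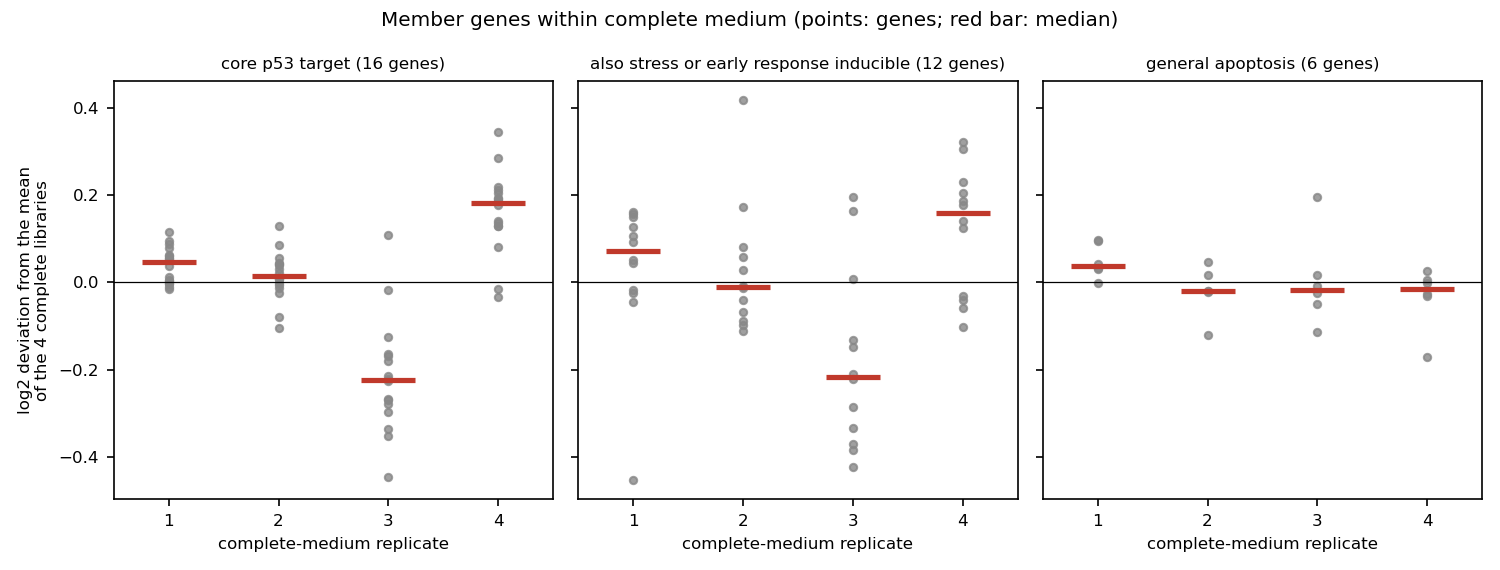
Deviation of each tested member from its mean over the 4 complete libraries (log2 of the normalized count plus 1), by replicate and by class, with red bars at the class medians. For core p53 targets the median lies at -0.22 in replicate 3 and at 0.18 in replicate 4, whereas for the 6 general apoptosis genes the medians lie between -0.02 and 0.04.

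Within complete medium many p53 targets ranked the libraries alike, a pattern singled out after the values were seen. Replicate 3 was the lowest of the 4 complete libraries for 24 of the 34 members (70.6%), where it was lowest for 28.3% of all genes tested. Replicate 4 was the highest for 19 of the 34 (55.9%), where it was highest for 7545 of all 29045 genes. Both held for 19 members (55.9%), against 12.1% of all genes. Among core p53 targets both held for 13 of 16 (81.2%), among stress-inducible targets for 6 of 12 and among general apoptosis genes for 0 of 6. The median SD of the core targets on the log2 scale was 0.181 in complete medium, 0.066 in cysteine-free medium and 0.035 in excess, where that of all genes was 0.165, 0.093 and 0.117. For BAX the lowest and highest complete libraries were 3671 and 6362, for CDKN1A 1886 and 2561 and for BBC3 434 and 720. Of the general apoptosis genes, MCL1 (6836 to 7016) and APAF1 (1838 to 1902) spread little. BCL2L1 ran from 963 to 1114, and BID ran from 989.8 in replicate 4 to 1277 in replicate 3, the reverse of the order seen in most core targets. It is this spread that the lower values in cysteine-free medium were tested against, and replicate 3 was the complete library closest to the cysteine-free ones on the second principal component.

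Per kilobase of exon, the most abundant members in complete medium were CCNG1 (2160 normalized counts per kilobase), BAX (1970), PMAIP1 (1610) and MCL1 (1110). The least abundant of those tested were GDF15 (17.3), FAS (30.9), PLK2 (42.1) and PLK3 (59.2). In excess cysteine the highest levels per kilobase were PMAIP1 (3400), CCNG1 (3080), CDKN1A (2830), GADD45A (2730) and TNFRSF10B (2570), and GDF15 reached 679. In cysteine-free medium CCNG1 (1990) and PMAIP1 (1930) again stood highest, followed by BAX (1210). Exon lengths cover all annotated transcripts of a gene, so levels are understated for genes with many rarely used exons, such as FAS.

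Of 18 genes tested from a list of relatives and regulators of p53, 11 (61.1%) rose and 4 (22.2%) fell in excess (median 0.34), where 23.1% and 22.9% of all genes did. Without cysteine 1 (5.6%) rose and 2 (11.1%) fell (median 0.07), where 7.39% and 8.51% of all genes did. The falls in excess and the calls without cysteine were thus near the shares of all genes. The largest rises in excess were in CREBBP, a p53 acetyltransferase (0.74), CHEK1, a checkpoint kinase (0.68), and RCHY1, a p53 ubiquitin ligase (0.64). The largest falls were in CDKN2A (-0.43), which encodes the MDM2 inhibitor ARF, CHEK2 (-0.42) and KAT5 (-0.35). Without cysteine CREBBP rose (0.30), and SIRT1, a p53 deacetylase (-0.33), and RCHY1 (-0.29) fell.

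Among 29 further p53 targets outside the 35, 17 (58.6%) rose and 4 (13.8%) fell in excess (median 0.48), where 23.1% and 22.9% of all genes did. Without cysteine 1 (3.4%) rose and 5 (17.2%) fell (median -0.22), where 7.39% and 8.51% of all genes did. Called genes with a mean of at least 100 are ranked here, and TRIM22, below that mean, rose by 2.12 in excess. The largest rises in excess were in EDA2R, a receptor of the TNF family (1.57), ABHD4 (1.46) and BTG1, the paralog of BTG2 (1.30). The largest falls were in CD82 (-1.61), STEAP3 (-1.47) and FUCA1 (-0.67). Without cysteine the largest falls were in TNFRSF10D, a decoy receptor for TRAIL (-1.71), TRIAP1 (-0.70) and STEAP3 (-0.43), and ABHD4 rose (0.71).

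Of 31 other apoptosis genes, 12 (38.7%) were higher and 8 (25.8%) lower in excess (median 0.21), where 23.1% and 22.9% of all genes were. Without cysteine 3 (9.7%) were higher and 4 (12.9%) lower (median -0.07), where 7.39% and 8.51% of all genes were, so that apart from the higher share in excess these shares were near those of all genes. HRK, a BH3-only gene, had the largest rise of the list in each comparison, 2.01 in excess and 1.02 without cysteine, followed in excess by CASP10, the paralog of CASP8 (1.04), and BOK (0.78). The caspase-8 inhibitor CFLAR (0.48) and TNFRSF1A (0.35) also rose without cysteine. The falls in excess were largest in the nucleases DFFB (-1.13) and ENDOG (-0.99) and in CASP9 (-0.69). Without cysteine they were largest in DFFB (-0.67), CYCS, which encodes cytochrome c (-0.51), and the caspase inhibitor XIAP (-0.36).

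**Figure D4:**
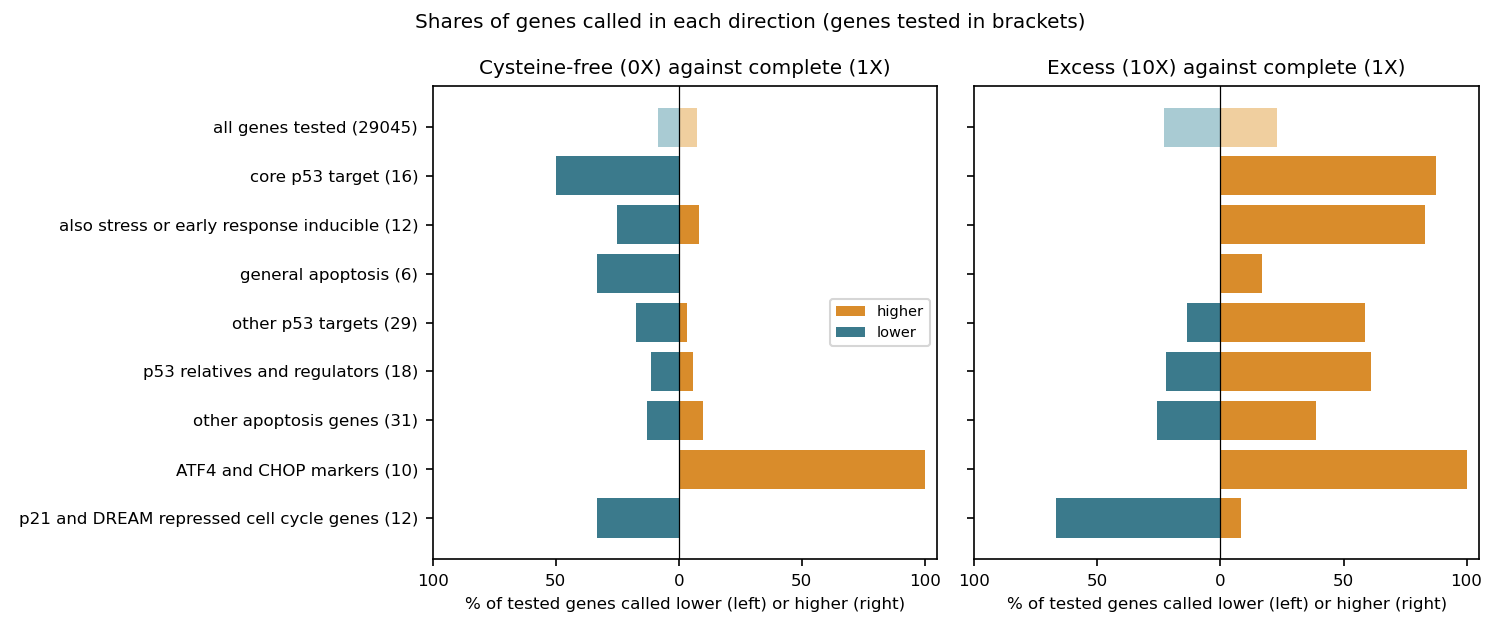
Percent of tested genes called higher (right, orange) or lower (left, teal) at an adjusted p of 0.01 or less in cysteine-free (left panel) and excess medium (right panel) against complete medium, for all genes, the 3 member classes and 5 further gene lists. Of the core p53 targets 8 of 16 were called lower and 0 higher without cysteine, and 87.5% were called higher and 0 lower in excess, whereas all 10 ATF4 and CHOP markers were called higher in both media.

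Markers of the ATF4 and CHOP stress response, to which several members are also known to respond, were higher than in complete medium in each of the other media. All 10 were called higher in excess, with a median of 2.11, and all 10 were called higher without cysteine, with a median of 1.04. The largest in excess were TRIB3 (3.32), ATF3 (2.93) and PPP1R15A (2.61), and the largest without cysteine DDIT4 (2.02), CHAC1 (2.00) and SESN2 (1.37), itself also a p53 target. DDIT3, which encodes CHOP, was at 0.97 without cysteine and 2.19 in excess. Of 5 members known as targets of this response, GDF15, BBC3 and TNFRSF10B were at -0.02, -0.07 and -0.44 without cysteine. PMAIP1 was at 0.26 (not called) and GADD45A at 0.37 (called higher). In excess the 5 were at 5.30, 1.25, 1.56, 1.08 and 1.90, in the same order. Of the 12 members classed as stress or early response genes, 10 rose in excess. The other 2, BCL2L11 (-0.08) and GADD45B (0.06), were not called there. Without cysteine BCL2L11 was at -0.27 (not called). The part of ATF4 and CHOP, and of p53, in the changes of the members was not tested.

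Cell cycle genes listed as known to be repressed by p21 through the DREAM complex were lower in excess for 8 of 12 (66.7%) and higher for 1 (8.3%). The median was -0.63, and of all genes 22.9% were lower and 23.1% higher. CCNB1, the mitotic cyclin B1 (-1.34), PLK1 (-1.07) and AURKA (-1.01) were at the lower end, and MYBL2 alone was called higher (0.49). CDK1, CDC25C and FOXM1 were not called, and 4 of the 12 had a log2 fold change above 0. Without cysteine 4 of the 12 (33.3%) fell and 0 rose (median -0.14), where 8.51% and 7.39% of all genes did. The falls were CDC20 at -0.53, AURKA at -0.39, BUB1 at -0.38 and CCNB1 at -0.38. CDKN1A, which encodes p21, was called higher in excess but lower without cysteine. The part of p21 and of the DREAM complex in these changes was not tested.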

How the data were processed

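RNA-seq of poly(A) RNA from HEK293T cells was analysed from 2 cysteine-free, 4 complete and 4 excess-cysteine libraries, grouped by their labels. The authors deposited a table of gene-level signal, that is read counts divided by a DESeq2 size factor per library. Per the labels and methods, reads were aligned with STAR 2.7.10b to GRCh38, and reads overlapping several genes were discarded. The strand setting of the counting is not given in the sources used here. Dividing each value by what a single read was worth in its library recovered whole reads for 100% of values (tolerance 0.001), with 34836014 to 61654861 reads per library.

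Symbols were taken from GENCODE 44. Genes with at least 10 in at least 3 libraries were kept (29045). Each pair of groups was compared with limma 3.58.1 in R 4.3.3 on log2(value + 1), with a variance trend, 2-sided, and Benjamini-Hochberg adjustment over all genes kept. Differences are on that scale, which understates changes of low genes. Calls required an adjusted p of 0.01 or less. The fits were tested on simulated data. Alternatives were another pseudocount, other filters, equal totals, quantile normalization, a joint fit, a replicate block, edgeR 4.0.16 (quasi-likelihood) and DESeq2 1.42.0 on the recovered reads, and leaving out each library. P-values measure only the spread between these libraries.

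The members, classes and gene lists were chosen with earlier results of these data known. Values per library are given for CDKN1A, MDM2 and members called with at least a 2-fold change against complete medium. BAX and MCL1 were added to these. 1 gene named by the rule is not reported here and was left out of its list. From each list, up to 3 called genes with the largest change in each direction and a mean of at least 100 are named. p53 element matches and promoter motifs were read from GRCh38 and from RefSeq promoters.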

Additional observations from a re-analysis of the deposited data

Results flagged for a closer look

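In groups of 4 libraries, a library was singled out where its gap to the nearest other library was larger, relative to the range of the group, than Dixon's 95% limit allows. This held in 4 of the 68 groups examined, where chance alone gives about 3.4. TP53INP1 was low in 1X replicate 3, at 350.2 normalized counts against 484.2 to 511.5 in the other complete libraries. SPATA18 was low in the same library, at 428.4 against 523.1 to 532.4. SPATA18 was high in 10X replicate 2, at 1358 normalized counts against 1227 to 1238 in the other excess libraries. CCNG1 was high there as well, at 9920.0 against 9379 to 9423.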

How the results depend on the processing

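In excess against complete medium, the 25 higher members were 25 in every fit that left out a library, while members called lower ranged from 0 to 1 (BCL2L1, without 1X replicate 3) and genes called from 11958 to 13691. The other alternatives gave 23 to 27 higher members. In cysteine-free against complete medium, leaving out a library gave 0 to 2 higher and 1 to 19 lower members, and 978 to 6300 genes called, against 4618 with all libraries. With no filter on low values there were 0 higher and 2 lower members (MCL1 and BAK1) and 738 genes called, and the cause was not tested. Quantile normalization, all 3 groups in one fit and DESeq2 each gave 2 higher members, PMAIP1 beside GADD45A. edgeR gave 1 higher and 13 lower members. In cysteine-free against excess medium, leaving out a library gave 28 to 30 lower members and 11593 to 13334 genes called, and no filter gave 8864 genes against 13954. Of the member values under the alternatives, 455 of 544, 606 of 612 and 534 of 544 kept their side of the threshold in cysteine-free against complete, excess against complete and cysteine-free against excess medium, and 0 of the called values reversed. The sign differed for 15, 7 and 0 of these values, all of members that were not called in that comparison.

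Libraries of the same replicate number did not deviate together (correlations from -0.0281 to 0.0392), so the numbers were not taken to pair them. A replicate block gave 2 higher and 19 lower members and 6532 genes in cysteine-free against complete medium, 25 higher members in excess against complete medium and 30 lower members in cysteine-free against excess medium. With 2 cysteine-free libraries, the number of libraries limits that comparison more than depth does.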

Other observations

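Long noncoding RNAs linked to p53 were examined with a list of 7 chosen after the member genes had been analysed, of which 5 were tested. DINOL, a p53-induced transcript that overlaps CDKN1A, was at 107.3 ± 12.6 normalized counts in excess and 45.6 ± 18.9 in complete medium (SD, n = 4 each), a log2 fold change of 1.33 (limma adjusted p = 4.87e-04). It shares 15.4% of its exon bases with CDKN1A, and how reads in the shared bases were counted depends on the strand setting, which is not given in the sources used here. MIR34AHG, the host gene of the p53-induced microRNA miR-34a, was at 758 ± 80.1 in excess and 397 ± 89.9 in complete medium, with 0.96 (limma adjusted p = 8.65e-06). Without cysteine it was at 252 ± 38.5 (n = 2), with -0.63 (limma adjusted p = 0.0212). NEAT1, the scaffold of paraspeckles, had its higher level in cysteine-free medium, at 4132 ± 165 (n = 2) against 2542 ± 557 in complete medium, with 0.72 (limma adjusted p = 0.00125). In excess it was at 3041 ± 433 and was not called (limma adjusted p = 0.061). TP53TG1 was lower in excess than in complete medium (-0.34, limma adjusted p = 0.0088), and PURPL was not called (0.28, limma adjusted p = 0.0128).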
